A study of Mus musculus with 20 samples.

Results

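The 10 genes described here are genes of C2C12 myotubes whose levels separated replicates 1 and 2 of every treatment from replicates 3 and 4. The genes are Mylk2, Asb14, Cap2, Car2, Fgfrl1, Fibin, Gcnt1, Islr, Serpine2 and Mal, 10 of the 26722 genes in the count table, and each was found there by its mouse symbol on 1 row. They were selected on their counts, which differed strongly between the replicate 1-2 libraries and the replicate 3-4 libraries of the same data. That difference is therefore given as a description without a test, and tests are given only for contrasts that the choice did not use. All 10 passed the filter on low counts, which kept 14605 genes.

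C2C12 is a line of mouse myoblasts that stop dividing in low serum and fuse into multinucleated myotubes. The cultures were differentiated for 5 days in horse serum and then treated for 16 h, with 4 biological replicates in each of 5 treatments. The control received 7.7 nM b12, a negative control antibody of the human IgG4 class, and the bivalent group received 7.7 nM 13-3B5, an antibody that activates the muscle-specific kinase MuSK. In the remaining 3 groups 0.1 nM neural agrin, which activates MuSK in the body, was given together with 7.7 nM b12 (agrin), 13-3B5xb12 or 11-3F6xb12, the last 2 being monovalent antibodies that inhibit MuSK. All groups thus received an antibody at the same dose. All come from a single cell line grown without nerve, and no label states whether a replicate number stands for a culture, a day or a sequencing run.

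When myoblasts become myotubes they leave the cell cycle, switch on the contractile apparatus, and then replace early isoforms of it with those of mature fibres, while calcium handling and energy supply grow with it. A myotube culture also keeps unfused mononucleated cells, which secrete much of the extracellular matrix. Among the 10 genes, Mylk2 encodes the skeletal muscle myosin light chain kinase, which phosphorylates the regulatory light chain when calcium rises. Cap2 encodes an actin regulator of striated muscle, and Asb14 encodes an ankyrin repeat protein with a SOCS box, a motif by which proteins join ubiquitin ligases. Car2 is a cytosolic carbonic anhydrase, Gcnt1 an enzyme that branches O-linked glycans, and Mal a proteolipid of membrane sorting. Fgfrl1 is a receptor of fibroblast growth factors without a kinase domain, and Fibin, Islr and Serpine2 encode secreted proteins, Serpine2 being an inhibitor of serine proteases.

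Total counts lay between 18424881 and 23343903 per library. Levels are given as CPM, the count relative to the library total, with trimmed mean of M-values (TMM) scaling, and 3 counts, taken as the limit of detection, correspond to at most 0.163 CPM. The smallest count of any of the 10 genes was 42 and the largest 1793. The first principal component, taken over the tested genes with a mean log2 CPM over 1, held 21% of the variance. It ran from 7.4 to 14.3 in the replicate 1-2 libraries and from -19.3 to -8.2 in the replicate 3-4 libraries. On the second component 2 libraries stood apart, agrin with 13-3B5xb12 replicate 1 at 30.6 and control replicate 2 at 20.8. Mitochondrial genes held 30.2% to 39.1% of the counts in replicates 1 and 2 (median 34.6). In replicates 3 and 4 they held 27.9% to 32.5% (median 29.95). Most of this came from a single ribosomal RNA gene, mt-Rnr2, with 27.3% to 35.9% (median 31.55) and 25.4% to 29.8% (median 27.35) in that order. With mitochondrial genes left out of the counts, an alternative described below, all 10 genes kept their direction and had no overlap. Beyond that, the part of the mitochondrial counts in the differences below was not tested. Median total counts were 22370405 and 22175385. Genes of the mature sarcomere and calcium handling summed to at least 23900 CPM of the plain library total in every library, so markers of the labelled cell type were present.

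All 10 genes had no overlap between the 10 libraries of replicates 1 and 2 and the 10 of replicates 3 and 4. Over all genes tested 1.68% had no overlap, 246 genes, of which 167 were higher in replicates 1 and 2 and 79 in replicates 3 and 4. Because the 10 genes were picked for this contrast, nothing is read from their count. By size of the gap, the distance on the log2 scale from the lowest library of the higher set to the highest library of the lower set, Mylk2 ranked 1 of 14605, and 8 of the 10 genes were in the first 20. In all, 8 genes were higher in replicates 1 and 2, and Serpine2 and Mal were higher in replicates 3 and 4.

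Mylk2 (ENSMUSG00000027470, GRCm38 chromosome 2, 152911352 to 152923068) had 13.8 to 18.4 CPM in replicates 1 and 2, with a median of 16.8, and 4.18 to 7.12 CPM in replicates 3 and 4, with a median of 4.99. Its lowest library of the first set was still 1.92 times its highest of the second, the widest gap of any gene tested. The means were 16.5 ± 1.76 and 5.36 ± 1.00 CPM (SD, n = 10 each), a 3.07-fold difference.

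Asb14 (ENSMUSG00000021898, chromosome 14, 26894557 to 26915258) had 10.0 to 19.3 CPM in replicates 1 and 2 (median 14.5) and 3.27 to 5.67 CPM in replicates 3 and 4 (median 4.36). The lowest library of the higher set was agrin with 13-3B5xb12 replicate 1, which also stood apart on the second component. The mean levels were 14.2 ± 2.56 and 4.56 ± 0.696 CPM, a 3.12-fold difference.

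Cap2 (ENSMUSG00000021373, chromosome 13, 46501848 to 46650281) had 60.3 to 84.3 CPM in replicates 1 and 2 (median 74.2) and 22.6 to 33.1 CPM in replicates 3 and 4 (median 31.0). Control replicate 3 was the lowest library of all, and the means of 72.4 ± 7.30 and 30.1 ± 3.29 CPM differed 2.41-fold. Cap2 shares 120 exon bases with Gm35110, a noncoding RNA gene on the opposite strand, and how strand was used in counting is not given in the sources used here.

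Car2 (ENSMUSG00000027562, chromosome 3, 14886273 to 14900770) had the largest difference of the 10. It had 10.9 to 25.9 CPM in replicates 1 and 2 (median 17.2) and 1.77 to 5.87 CPM in replicates 3 and 4 (median 4.61). It was also the most variable gene within each set, with coefficients of variation of 23.9% and 27.2%. The means were 17.6 ± 4.21 and 4.35 ± 1.18 CPM, a 4.04-fold difference. The lowest value came from agrin replicate 3, the library in which markers of liver cells summed to 29.4 CPM of the plain library total, and without that library the log2 difference was 1.88 in place of 2.02.

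Fgfrl1 (ENSMUSG00000008090, chromosome 5, 108692382 to 108706924) was the least variable. Its range was 64.3 to 85.4 CPM in replicates 1 and 2 (median 76.0) and 32.2 to 40.2 CPM in replicates 3 and 4 (median 37.8), with coefficients of variation of 8.54% and 6.69%. The means of 76.0 ± 6.49 and 37.2 ± 2.49 CPM differed 2.04-fold, the smallest fold of the 10.

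Fibin (ENSMUSG00000074971, chromosome 2, 110360917 to 110363183), a gene of a single exon, had 12.7 to 22.1 CPM in replicates 1 and 2 (median 19.2) and 5.09 to 7.78 CPM in replicates 3 and 4 (median 6.74). Control replicate 2, which stood apart on the second component, was the lowest of the higher set. The means were 18.7 ± 3.17 and 6.62 ± 0.877 CPM, a 2.82-fold difference.

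Gcnt1 (ENSMUSG00000038843, chromosome 19, 17326141 to 17372844) had 15.3 to 21.7 CPM in replicates 1 and 2 (median 21.2) and 5.07 to 12 CPM in replicates 3 and 4 (median 7.77). Its sets came closer than those of the other 7 genes of this direction, with a ratio of 1.27 between the nearest libraries. The means of 19.9 ± 2.31 and 8.11 ± 2.07 CPM differed 2.46-fold.

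Islr (ENSMUSG00000037206, chromosome 9, 58156268 to 58204306) had 13.6 to 19.0 CPM in replicates 1 and 2 (median 15.7) and 4.30 to 8.01 CPM in replicates 3 and 4 (median 7.02). The means were 16.0 and 6.57 CPM, with coefficients of variation of 11.4% and 20.1%, and differed 2.43-fold. Islr shares 181 exon bases with its relative Islr2 on the same strand, so reads of that stretch cannot be assigned to one of them with certainty.

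The pair higher in replicates 3 and 4 behaved differently at the edges. Serpine2 (ENSMUSG00000026249, chromosome 1, 79794197 to 79861180) had 8.16 to 14.1 CPM in replicates 1 and 2 (median 11.5) and 20.2 to 29.9 CPM in replicates 3 and 4 (median 23.1). Its means were 11.0 ± 1.85 and 23.7 ± 3.06 CPM, a 2.15-fold difference. Mal (ENSMUSG00000027375, chromosome 2, 127633226 to 127656695) had 4.79 to 9.02 CPM in replicates 1 and 2 (median 5.92) and 9.32 to 18.9 CPM in replicates 3 and 4 (median 16.1).

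The sets of Mal nearly touched, at a ratio of 1.03, which put its gap at rank 157, although its means of 6.34 ± 1.28 and 15.7 ± 2.62 CPM differed 2.47-fold. A single library set that edge, agrin with 11-3F6xb12 replicate 4 at 9.32 CPM, while the other 9 libraries of its set had at least 14.7 CPM. The genes next to Mal in the ranking were Nsmce3 before it and Atp2a2 after it, with log2 differences of -0.36 and 0.47.

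**Figure D1:**
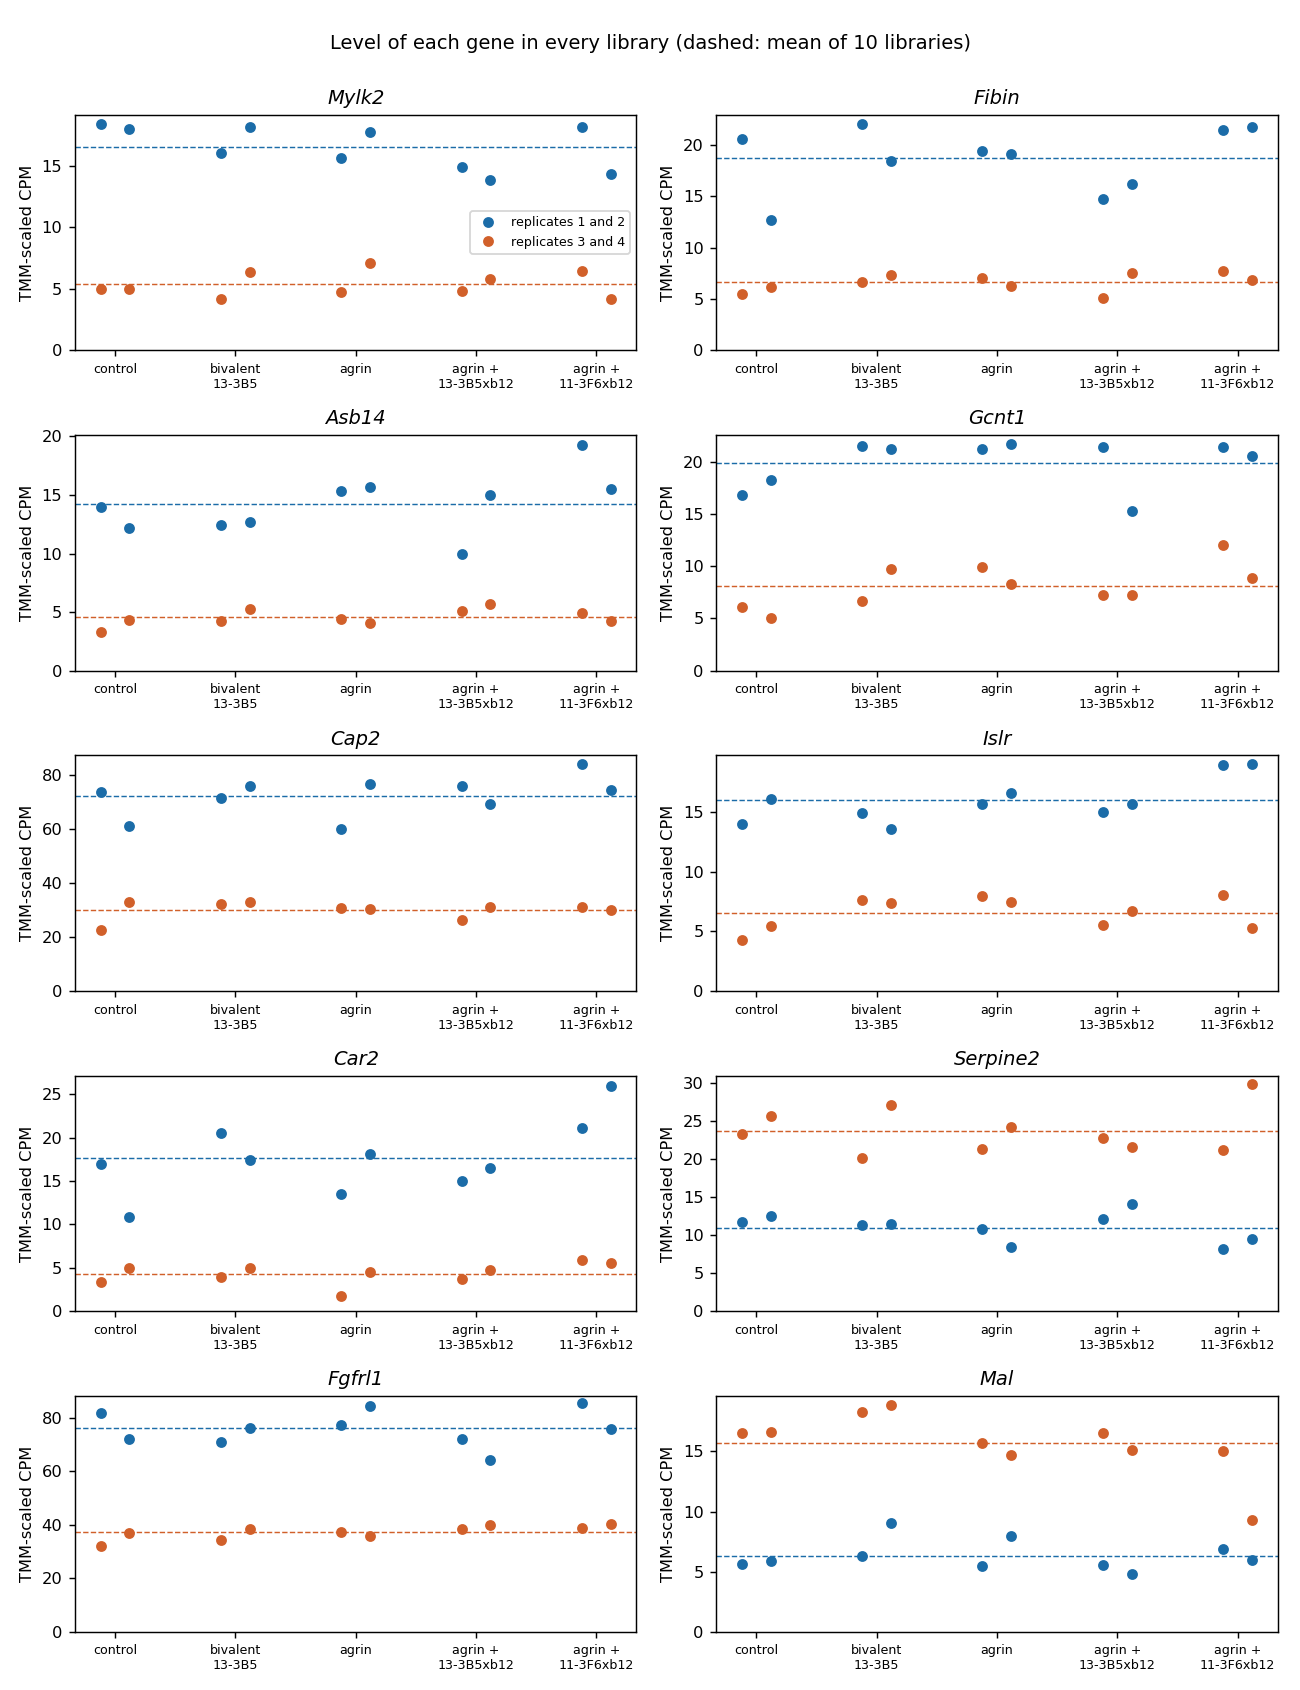
Level of each of the 10 genes in every library. The vertical axes give TMM-scaled CPM from 0, the horizontal axes the 5 treatments, points are libraries (replicates 1 and 2 in blue, 3 and 4 in orange, the lower number to the left), and dashed lines are means of 10 libraries. Blue lies above orange for 8 genes and below it for Serpine2 and Mal, where the one low orange point of Mal is at 9.32 CPM.

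Divided by the exon length of the gene, mean levels in replicates 1 and 2 ran from 27.3 CPM per kilobase for Fgfrl1 and 17.4 for Cap2 down to 1.33 for Serpine2. In replicates 3 and 4 Fgfrl1 was again the highest at 13.4 CPM per kilobase, and the lowest was Gcnt1 at 1.41. Exon lengths ran from 2267 bases for Fibin to 8287 bases for Serpine2. The set difference of all genes had medians between -0.02 and 0.00 on the log2 scale in 4 groups of genes ordered by exon length.

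As a description, the 250 bases before the RefSeq starts of the 10 genes were searched for motifs of factors that act in muscle. These starts can differ from the gene starts given above. The genes were picked for splitting the same libraries, so their shared split is no sign of shared regulation. RefSeq windows on GRCm38.p6 were found for 8 of the 10 genes, with no window for Mylk2 and Car2, and 3 windows for Gcnt1. Of these, 3 are shown because they held a match to the MEF2 motif or to CAGCTG, the E-box form bound by myogenic bHLH factors, with the matches in capitals. Asb14 is shown at chr14:26894364-26894613 on the plus strand, Islr at chr9:58158555-58158804 on the minus strand, and Mal at chr2:127656696-127656945 on the minus strand, each from 5′ to 3′ with the last base next to the start.
Asb14: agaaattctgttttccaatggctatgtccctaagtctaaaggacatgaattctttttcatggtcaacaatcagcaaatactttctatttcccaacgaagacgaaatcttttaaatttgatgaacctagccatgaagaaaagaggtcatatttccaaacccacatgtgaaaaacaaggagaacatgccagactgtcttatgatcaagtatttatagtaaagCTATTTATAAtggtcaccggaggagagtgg
Islr: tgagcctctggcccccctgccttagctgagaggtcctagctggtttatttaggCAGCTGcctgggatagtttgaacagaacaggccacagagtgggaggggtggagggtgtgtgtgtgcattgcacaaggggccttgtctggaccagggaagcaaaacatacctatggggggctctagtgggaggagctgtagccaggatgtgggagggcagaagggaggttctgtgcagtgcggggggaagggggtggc
Mal: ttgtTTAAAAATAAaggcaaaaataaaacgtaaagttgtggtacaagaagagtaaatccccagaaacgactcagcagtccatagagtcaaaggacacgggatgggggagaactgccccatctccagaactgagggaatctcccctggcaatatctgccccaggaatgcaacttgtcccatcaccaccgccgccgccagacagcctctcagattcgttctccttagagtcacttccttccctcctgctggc

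MEF2 motifs were found in 2 of the 8 genes, in Asb14, which was higher in replicates 1 and 2, and in Mal, which was higher in replicates 3 and 4. In all 32851 windows of the same length 2.92% held one. Both strands were searched for every motif, and the MEF2 match in Asb14 overlaps a TATAAA motif. The sequence CAGCTG was found in 1 gene, Islr, and in 13.0% of all windows, and the general E-box CANNTG, which includes it, in 6 of 8 genes and 66.2% of all windows. CATTCC, the motif of TEAD factors, was found in 3 of 8 genes and in 12.6% of windows, and the CArG box of serum response factor in 0 of 8 genes and 1.47% of windows. A gene was counted when any of its windows held a match, while the shares are of single windows. Gcnt1, which had several windows, was among the genes with CATTCC, so the counts and shares are not like measures. The windows differed in composition from 36% G and C in Asb14 to 78.8% in Serpine2, against a median of 52.4% in all windows. A match is a description of the letters and not a binding site.

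The difference between the sets had the same direction in all 5 treatments for all 10 genes. With 2 libraries against 2 in each treatment, 50 of 50 combinations of gene and treatment showed no overlap, where 3.68% of all genes tested did so in all 5 treatments with 1 direction. Again the choice of the genes used this contrast. The fold varied among treatments by gene. Cap2 was the steadiest, with log2 differences from 1.15 in agrin to 1.37 with agrin and 11-3F6xb12, and Fibin ran from 1.30 with agrin and 13-3B5xb12 to 1.56 with agrin and 11-3F6xb12.

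Wider ranges were seen for Asb14, from 1.17 with agrin and 13-3B5xb12 to 1.90 with agrin and 11-3F6xb12, and for Car2, from 1.70 in the control to 2.42 in agrin. Islr ran from 0.92 with bivalent 13-3B5 to 1.62 in the control, and Mylk2 from 1.43 with agrin and 13-3B5xb12 to 1.85 in the control. For Fgfrl1 the range was 0.80 to 1.15 and for Gcnt1 1.01 to 1.63. Serpine2 was lower in replicates 1 and 2 by a log2 difference between -1.50 and -0.76, and Mal by one between -1.60 and -0.88, both with agrin and 11-3F6xb12 at one end and agrin and 13-3B5xb12 at the other, in opposite order.

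Whether these differences varied with treatment beyond the spread of libraries was tested in edgeR by the interaction of treatment and replicate set, a contrast other than the one used for the choice, although a choice of strong differences favours even ones. None of the 10 genes was called (0 at an adjusted p-value under 0.05, 0 at an unadjusted one, where 4.85% of all genes were, and 0 with DESeq2), and the smallest unadjusted p-value was 0.0791 for Serpine2 with an adjusted p-value of 0.966. Over all genes 0.00685% were called, which is 1 gene, Myh4. A p-value above the threshold does not show that the differences were equal in all treatments.

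**Figure D2:**
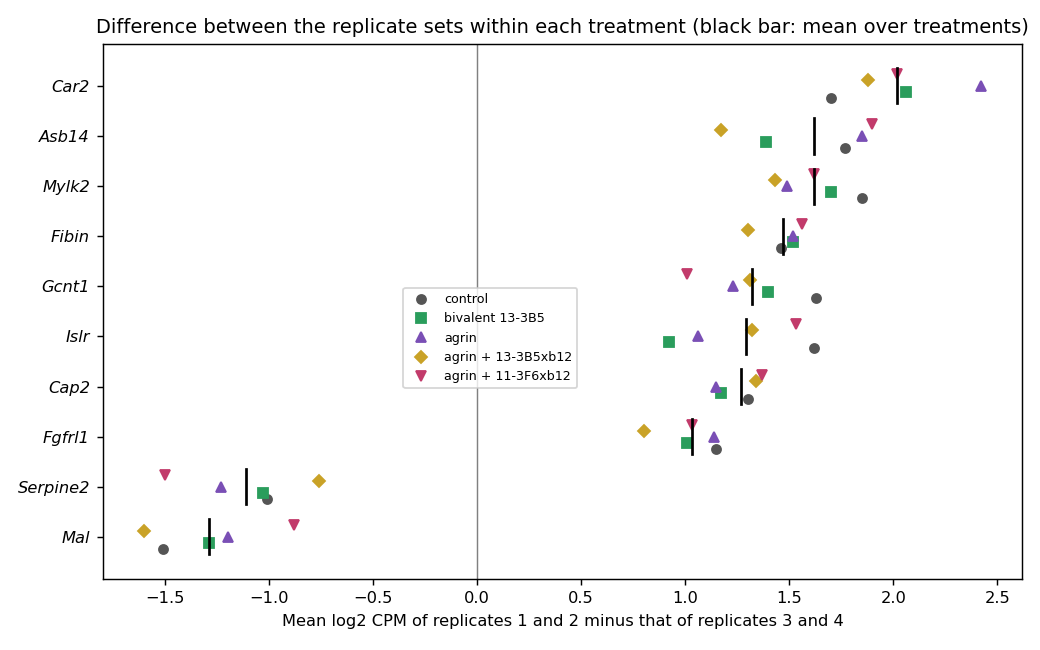
Difference between the replicate sets within each treatment. The horizontal axis is the mean log2 CPM of replicates 1 and 2 minus that of replicates 3 and 4, each symbol is 1 treatment (2 libraries against 2), and black bars are the means over treatments. All symbols of 8 genes lie right of 0, between 0.80 and 2.42, and all symbols of Serpine2 and Mal lie left of it, between -1.60 and -0.76.

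Within each set the 10 genes were then compared between the 2 replicate numbers. This contrast differs from the one used for the choice, but genes picked for sets without overlap are also picked for little spread within a set, so a lack of calls here is favoured by the choice and is given as a description. In this fit of treatment and replicate number, with 5 libraries per number, 0 of the 10 genes differed between replicates 1 and 2 in edgeR (0 at an unadjusted p-value under 0.05, 0 with DESeq2), where the background over all genes was 0% called and 3.14% at an unadjusted p-value under 0.05. Log2 differences of replicate 2 minus replicate 1 ran from -0.16 for Fibin to 0.15 for Mal, with standard errors between 0.07 and 0.16. The mean of Mylk2 was 16.6 ± 1.53 CPM in replicate 1 and 16.4 ± 2.14 in replicate 2 (SD, n = 5 each), and that of Asb14 was 14.2 ± 3.47 and 14.2 ± 1.65 CPM.

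Between replicates 3 and 4 also 0 of the 10 were called by edgeR or DESeq2, with 0% called over all genes, while 2 had an unadjusted p-value under 0.05, where 3.75% of all genes did. These were Car2, at 3.77 ± 1.46 CPM in replicate 3 and 4.93 ± 0.382 in replicate 4 (log2 difference 0.44, SE 0.18, adjusted p 0.999 in edgeR), and Serpine2, at 21.8 ± 1.27 and 25.7 ± 3.11 CPM (0.25, SE 0.12, adjusted p 0.999 in edgeR). Over the alternatives run, the adjusted p-values of these 2 results lay between 0.613 and 1 and between 0.762 and 1. Both differences rested in part on 1 library, with 0.27 for Car2 without agrin replicate 3 and 0.13 for Serpine2 without agrin and 11-3F6xb12 replicate 4. The other 8 genes lay between -0.15 and 0.18.

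**Figure D3:**
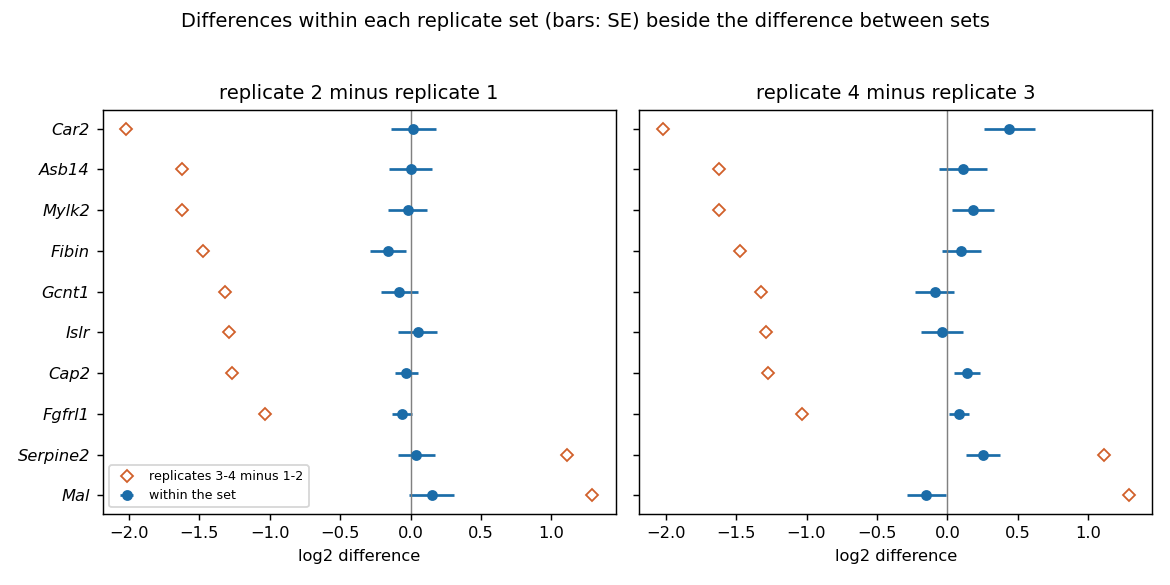
Differences within each replicate set beside the difference between sets. Filled circles with bars are log2 differences and standard errors from edgeR for replicate 2 minus 1 (left) and replicate 4 minus 3 (right), and open diamonds are the mean log2 difference of replicates 3 and 4 minus replicates 1 and 2. Circles lie between -0.16 and 0.44, and diamonds are at 1.03 or more in size.

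The treatments, which were the question of the study, were each spread over both sets. A fit of treatment alone leaves the set difference, for which the genes were picked, in the spread within treatments, so its lack of calls for these genes says nothing about the treatments. None of the 10 genes was called between treatments in edgeR, in a test of any difference among the 5 (0 at an unadjusted p-value under 0.05, 0 with DESeq2), against a background of 0% of all genes, and the unadjusted p-values of the 10 genes ran from 0.904 to 0.997. The counts were the same for bivalent 13-3B5 minus control, agrin minus control, and agrin with 13-3B5xb12 or with 11-3F6xb12 minus agrin, with 0 of 10 genes called, 0 at an unadjusted p-value under 0.05 and 0 with DESeq2 in each, and 0% of all genes called. At an unadjusted p-value under 0.05 the shares of all genes were 2.25% for any difference and 2.77%, 2.85%, 3.83% and 3.33% for the 4 comparisons in that order. For the 10 genes in agrin minus control, standard errors of log2 fold changes had a median of 0.54, and it was 0.16 when the set was a term of the model.

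With that term, which compares treatments within the sets, again 0 of the 10 genes were called in each of these comparisons, while the counts at an unadjusted p-value under 0.05 were 2 for any difference, 1 for bivalent 13-3B5 minus control, 2 for agrin minus control, 0 for 13-3B5xb12 and 1 for 11-3F6xb12. Over all genes the unadjusted shares were 4.17%, 4.18%, 4.12%, 5.18% and 5.02%. At an adjusted p-value under 0.05 in edgeR, 0.0342% of all genes were called for any difference (Ogn, Spon2, mt-Nd1, Aspn and Tspan8), 0.0137% for 11-3F6xb12 (Ogn and mt-Nd1), and 0% in the other 3. Among the 10 genes the largest fold change was that of Car2 with agrin and 11-3F6xb12. It had 21.1, 25.9, 5.87 and 5.52 CPM in replicates 1 to 4, and 13.5, 18.1, 1.77 and 4.5 CPM in agrin, so within each set both libraries with the antibody were above both with agrin and b12.

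For Car2 the log2 fold change was 0.69 (SE 0.19, unadjusted p 0.00126, adjusted p 0.654 in edgeR) with the set term and 0.63 without it, where the adjusted p-value was 1. The value without the term was 0.20 when agrin and 11-3F6xb12 replicate 2 was left out and 1.15 when agrin replicate 2 was. In such a fit a left-out library makes the sets unequal between treatments, so part of the set difference of Car2 enters the fold change. These values therefore do not show how far the difference within sets rests on 1 library. Libraries were not left out of the fit with the term. Adjusted p-values over all alternatives lay between 0.23 and 1. Most alternatives, here and for Gcnt1 below, were fits without the term. Gcnt1 had 16.8, 18.2, 6.14 and 5.07 CPM in the control and 21.2, 21.7, 9.95 and 8.29 CPM in agrin, again with both libraries of each set above both of the control. Its log2 fold change in agrin minus control was 0.47 (SE 0.15, adjusted p 0.999 in edgeR) with the term and 0.40 without it, and adjusted p-values over alternatives lay between 0.854 and 1. The value without the term was 0.15 when control replicate 4 was left out and 0.71 when control replicate 2 was. Here too the sets became unequal between treatments, so part of the set difference of Gcnt1 entered these values. With bivalent 13-3B5 Gcnt1 had 21.5, 21.2, 6.63 and 9.72 CPM, also above the control within each set. That difference on the log2 scale was 0.39 (SE 0.15, edgeR adjusted p 0.983) with the term, and adjusted p-values over alternatives lay between 0.897 and 1. Without the term, leaving out the same 2 control libraries in turn gave 0.10 and 0.66, with the same limit.

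Genes outside the 10 with the widest gaps between the sets were listed by the same measure, as a description. Those higher in replicates 1 and 2 were Igfn1, a protein of the muscle Z-disc, at 6.50 ± 1.79 against 1.28 ± 0.768 CPM (SD, n = 10 each), Serpinb6b, a serpin, at 25.2 ± 4.66 against 8.70 ± 2.21, and Myh7b, a sarcomeric myosin heavy chain, at 15.6 ± 1.56 against 6.66 ± 0.798. Cnksr1, a scaffold of Ras signalling, had 5.45 ± 0.985 against 1.92 ± 0.577 CPM, and Scml4 had 25.1 ± 2.20 against 11.3 ± 2.19. Their gaps took ranks 4, 7, 9, 11 and 12, between those of the 10 genes.

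Those higher in replicates 3 and 4 had narrower gaps, at ranks 23 to 44. They were Fgf7, a growth factor made by mesenchymal cells, at 11.7 ± 1.56 CPM in replicates 1 and 2 against 23.1 ± 2.89 in replicates 3 and 4, Slpi, a secreted protease inhibitor, at 3.70 ± 1.18 against 10.1 ± 2.57, and Tspan11, a tetraspanin, at 5.71 ± 1.31 against 11.1 ± 1.13. Lcn2, a secreted protein that binds iron carriers, had 0.614 ± 0.449 against 4.39 ± 1.68 CPM, a 7.38-fold difference, and Fam102a had 4.71 ± 1.04 against 9.07 ± 1.33.

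**Figure D4:**
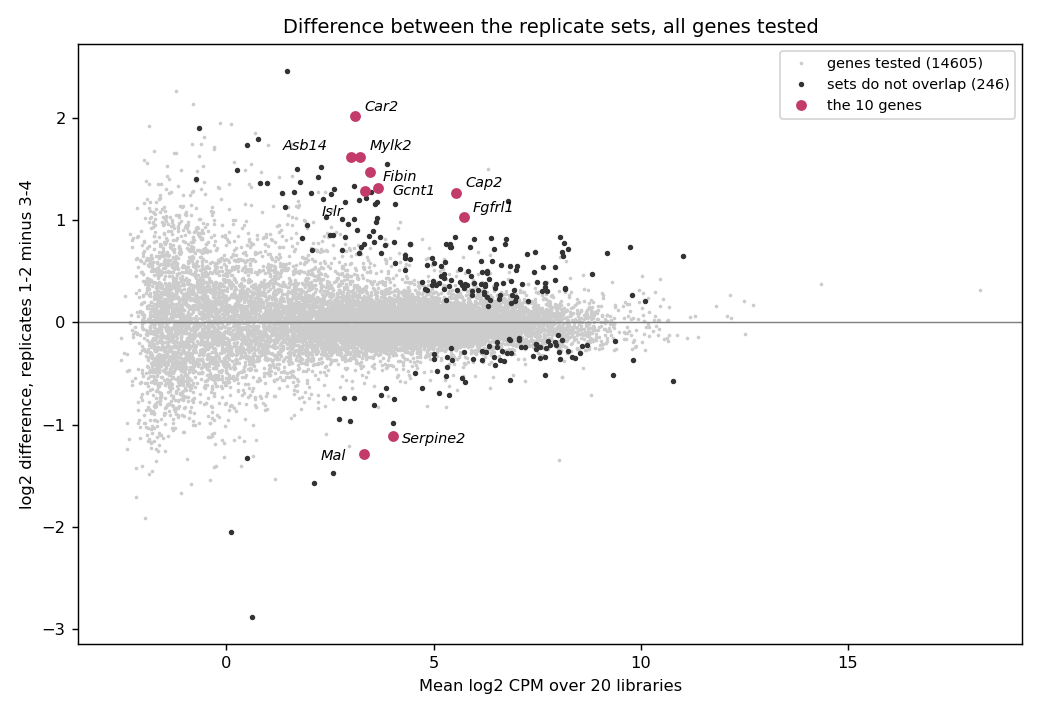
Difference between the replicate sets for all 14605 genes tested. The horizontal axis is the mean log2 CPM over 20 libraries, the vertical axis the log2 difference of replicates 1-2 minus 3-4, dark points are the 246 genes whose sets do not overlap, and the 10 genes are in red. The 10 genes run from -1.29 for Mal to 2.02 for Car2.

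What else in the muscle program differed between the sets was described with gene lists, from which the 10 genes were left out. In such bulk libraries fewer cells of a type and less RNA per cell cannot be told apart. In the list of mature sarcomere and calcium handling genes, 11 of 45 had no overlap and were higher in replicates 1 and 2, where 1.14% of all genes were, and 0 were higher in replicates 3 and 4, where 0.541% were. The median log2 difference of the list was 0.27 and that of all genes -0.01. Examples are Myl2, the slow regulatory light chain, at 169 ± 29.0 against 74.1 ± 13.8 CPM (SD, n = 10 each), and Myoz1, a Z-disc protein of fast fibres, at 3.92 ± 0.747 against 1.81 ± 0.653. In the list of muscle energy metabolism, 3 of 20 were higher without overlap in replicates 1 and 2 and 0 lower, with a median of 0.56, among them Mb, which encodes myoglobin, at 379 ± 54.3 against 220 ± 22.7 CPM, and Ckm, the muscle creatine kinase, at 391 ± 42.5 against 238 ± 26.0.

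Genes of earlier stages were described in the same way, and the difference between lists was not tested. Of 23 genes of early differentiation and fusion 1 was higher without overlap in replicates 1 and 2, Tnnt1, the slow troponin T, at 734 ± 71.3 against 459 ± 36.1 CPM, with 0 lower and a median of 0.01. Of 18 myoblast and reserve cell genes 1 was higher in replicates 3 and 4, the proteoglycan Sdc4, at 236 ± 18.5 against 303 ± 13.0 CPM, with 0 in the other direction and a median of 0.07. On the plain library total, the summed CPM of that list did not overlap between sets. It was 2180 to 2590 in replicates 1 and 2 and 2710 to 3050 in replicates 3 and 4. The largest gene of the list was Itga7, at 1510 ± 53.5 against 1680 ± 71.1 CPM with TMM scaling, with overlap. Sums of the energy list did not overlap either, at 3900 to 4520 against 3540 to 3870, while those of the sarcomere and early lists overlapped. Proliferation genes, which mark dividing cells, had a higher median than the sarcomere list, at 0.34, with 0 of 20 without overlap in either direction. Single genes of that list went both ways, with log2 differences from -0.26 to 0.65. Their summed level, in CPM of the plain library total, had medians of 454 in replicates 1 and 2 and 455 in replicates 3 and 4. When libraries were scaled by total count in place of TMM, the median of all genes went from -0.01 to -0.12, and the split of genes without overlap turned from 167 higher and 79 lower to 89 and 272. Beside that median those of the sarcomere and energy lists were 0.16 and 0.45, with 6 and 3 genes higher without overlap and 0 lower in both. For the proliferation list the median was 0.23, with 0 genes without overlap in either direction. In the myoblast list 0 were then higher and 4 lower, with a median of -0.04, in the early list 1 and 0, with -0.10, and the difference of Sdc4 was -0.47 in place of -0.36. Without the 2 libraries that stood apart on the second component, an alternative chosen after seeing the data, 17 of the sarcomere genes and 7 of the energy genes were higher without overlap and 1 and 0 lower, in the early list 4 were higher and 1 lower, in the myoblast list 1 and 1, and over all genes 288 and 148.

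Relatives of the 10 genes by family were described next. Of 36 relatives tested, 1 was higher without overlap in replicates 1 and 2 and 1 in replicates 3 and 4, with a median of -0.01, and under total count scaling these were 1 and 3, with a median of -0.12. The first was Car3, the carbonic anhydrase of slow muscle, at 13.4 ± 2.03 against 5.5 ± 1.57 CPM, and the second Car5b, a mitochondrial carbonic anhydrase, at 29.0 ± 3.34 against 40.3 ± 2.59. The other relatives, all with overlap, ran from a log2 difference of -0.91 for Car7 to 2.14 for Car9, with means of 0.207 against 0.437 and 1.23 against 0.232 CPM. Asb11 was at 1.48, with 1.03 against 0.358 CPM, and Asb16 at 0.64, with 2.9 against 1.83 CPM, both ankyrin repeat proteins like Asb14. The other tested relatives of that family lay between -0.14 and 0.39. The kinase Mylk4 was at -0.85. The ubiquitous Cap1 had 119 ± 4.70 against 128 ± 5.32 CPM, and Mylk, the smooth muscle light chain kinase, had 15.9 ± 2.39 against 16.3 ± 2.65. Asb5, another ankyrin repeat protein of muscle, had 286 ± 25.6 against 313 ± 18.2 CPM.

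**Figure D5:**
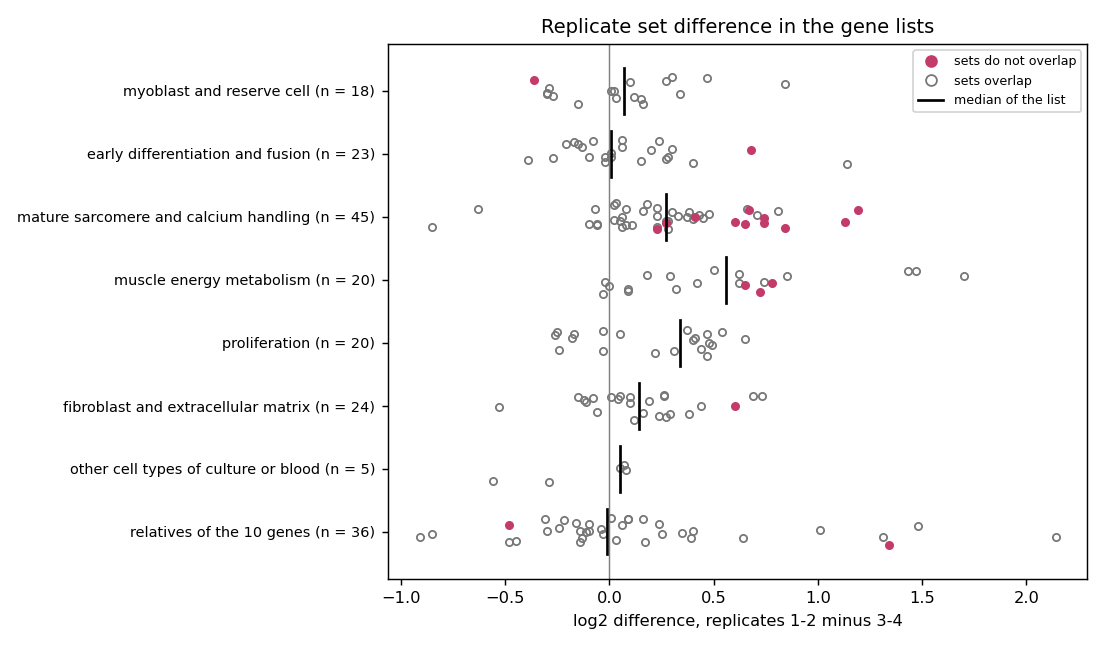
Log2 difference of replicates 1-2 minus 3-4 for the genes of each list, the 10 genes left out. Each circle is a gene, filled in red where its sets do not overlap, black bars are list medians, and n is the number of genes tested. Filled circles of the sarcomere and energy lists all lie right of 0, with medians of 0.27 and 0.56.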

How the data were processed

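Total RNA of 20 C2C12 myotube libraries was sequenced after ribosomal RNA removal, per the labels' protocols. The authors deposited 1 table of whole-number counts per gene, not normalized. Per the submitters' processing notes the tools were Trim Galore 0.6.6, cutadapt 2.10, STAR 2.7.6a, HTSeq 0.12.4 and DESeq2 1.32.0 on GRCm38, and their settings, the annotation and the use of strand are not given in the sources used here. Treatments and replicate numbers came from sample titles. Positions and exon lengths are from GENCODE M21 and the promoter windows from RefSeq, both on GRCm38.

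The analysis used edgeR 4.0.16 in R 4.3.3 and kept 14605 of 26722 genes by filterByExpr (minimum count 10, minimum total 15), with TMM scaling, robust quasi-likelihood F-tests, two-sided, and Benjamini-Hochberg adjustment over all genes at 0.05. Fits of all 20 libraries had treatment alone, treatment with replicate number, or treatment by replicate set. Log2 CPM used a prior count of 2. The tests were tested on simulated data with known changes. For the fit of treatment alone those data held no difference between replicate sets, so they say nothing about that fit for genes with a large one. The labels call the replicates biological without saying that cultures were separate, so p-values measure the spread between these libraries, which may be technical. Replicates of a treatment differed by at least 5.17 in chi-square per gene, more than sampling noise.

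The 10 genes and the lists were chosen with earlier results of these data known. Named genes are the 10, the 5 in each direction with the widest gaps, up to 2 per direction from each list among genes without overlap, and any of 5 or fewer called genes. Cap1, Mylk, Mylk4, Asb5, Asb11, Asb16, Car7, Car9, Itga7 and Acta2 were chosen after their values were seen, and Nsmce3 and Atp2a2 for their ranks. Alternatives were DESeq2 size factors, DESeq2 1.42.0 tests, other filters, replicate and set blocks, total count scaling, a prior count of 0.5, no mitochondrial genes, and leaving out libraries.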

Additional observations from a re-analysis of the deposited data

Results flagged for a closer look

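In the 10 genes, 70 groups of libraries (50 treatments of 4 and 20 replicate sets of 10) were examined for a library far from the rest by Dixon's criterion, and 1 stood out. Chance flags about 1 in 20 groups. The 50 treatment groups each span both replicate sets of genes picked for that split, which leaves a wide range and little room for a single library to stand out, and the 1 found was among the 20 replicate sets. It was Mal in agrin with 11-3F6xb12 replicate 4, at 9.32 CPM, while the other 9 libraries of replicates 3 and 4 had 14.7 to 18.9 CPM. The gap was 0.559 of the range.

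Myh4, a fast myosin heavy chain that is not among the 10 genes, was the 1 gene whose difference between replicate sets varied with treatment in edgeR (adjusted p 0.0221). With agrin and 11-3F6xb12 it had 120 and 121 CPM in replicates 1 and 2 and 173 and 198 in replicates 3 and 4, a log2 difference of -0.62. With agrin and 13-3B5xb12 it had 175 and 181 against 136 and 136 CPM, a log2 difference of 0.38. In the other 3 treatments the differences lay between -0.16 and -0.05. Myh4 was called in 17 of 25 alternatives, with adjusted p-values from 7.68e-07 to 0.667. Each of the 8 alternatives that lost it left out 1 library, with adjusted p-values of 0.0604 without agrin replicate 1, 0.0617 without agrin replicate 2 and 0.0522 without bivalent 13-3B5 replicate 4. Without agrin and 13-3B5xb12 replicate 3 or 4 they were 0.251 and 0.297, and without agrin and 11-3F6xb12 replicate 1, 2 or 4 they were 0.478, 0.358 and 0.667.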

How the results depend on the processing

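Under all 25 alternatives the 10 genes kept their direction between replicate sets, and 10 of 10 had no overlap, also without the 2 libraries that stood apart on the second component, an alternative with 436 genes without overlap over all genes in place of 246. Most of these alternatives only left out libraries. Sets without overlap cannot come to overlap by that, apart from slight changes of scaling, so this outcome was nearly fixed by the choice of the genes. The count of genes called among the 10 was 0 in all 210 alternatives of the 8 tests, of which 160 left out 1 library, where it ranged from 0 to 0. Treatment fits without a set term keep the set difference of these genes in the spread, so their counts of 0 do not bear on the treatments. Adjusted p-values came closest to the threshold without a filter on low counts, at 0.0837 in edgeR for any difference among treatments. That too was a fit without a set term, so the same limit holds for it. With the replicate number as a block, 0 of the 10 genes were called in each treatment comparison, and over all genes 2 were called for any difference and 2 for 11-3F6xb12, with 0 in the other 3 comparisons. Same-numbered libraries had deviations correlated across genes by 0.011 to 0.117, with not every pair over 0.1, so single numbers were not taken to pair the samples, although the replicate 1-2 and 3-4 libraries of all treatments separated on the first principal component. Over all genes, the number whose set difference varied with treatment was 1 and ranged from 0 to 182 over the fits that left out 1 library, with 182 without agrin and 13-3B5xb12 replicate 2 and 0 in the 8 fits that lost Myh4. In those fits 1 library of a treatment and set remained and is assumed to vary like the others. Without a filter on low counts 61 genes had a set difference that varied with treatment. The alternatives of the 8 tests without the 2 libraries that stood apart, and those of the list medians, were chosen after seeing the data.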

Other observations

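Lists of other cells and states, with the 10 genes left out, were compared between the replicate sets as a description. Summed levels of lists are CPM of the plain library total, without TMM factors. The summed level of the 20 proliferation genes was 373 to 518 in replicates 1 and 2 and 407 to 623 in replicates 3 and 4, on that scale. Of 24 fibroblast and extracellular matrix genes 1 had no overlap, Col6a2, a collagen VI chain, at 88.1 ± 10.7 against 57.9 ± 6.86 CPM (SD, n = 10 each). The median of that list was 0.14, and its summed levels overlapped, at 10300 to 13300 and 10700 to 13100. With total count scaling 0 had no overlap and the median was 0.03.

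Of 20 liver cell markers 18 were in the table and 1 passed the filter on low counts, and their sum was at most 1.24 in replicates 1 and 2 and reached 29.4 in agrin replicate 3. Cyp2e1 and Tat were at 3 counts or fewer in every library. Of 22 markers of blood, endothelial, fat, epithelial, nerve and smooth muscle cells 19 were in the table, and 7 of them, Ptprc, Adgre1, Cdh5, Krt18, Plin1, Rbfox3 and Myh11, had no more than 3 counts in any library. The summed level of all 19 was 993 to 1200 and 1070 to 1210. Most of it came from 1 gene, Acta2, at 1090 ± 80.4 against 1040 ± 67.4 CPM with TMM scaling. Of the 5 that were tested 0 had no overlap, and the median log2 difference was 0.05.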
